A study of Mus musculus with 12 samples.

Results

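The genes described here encode 8 transcription factors that set up and maintain the identity of the hepatocyte, the main cell of the liver: Hnf4a, Foxa1, Foxa2, Foxa3, Cebpa, Onecut1, Prox1 and Nr5a2. They were taken from the liver gene table by symbol, where each symbol had 1 row, so that they make up 8 of 41128 rows. All 8 passed the filter on low values that left 11782 genes for testing. The table held 12 RNA sequencing libraries, each from the snap-frozen liver of a single C57BL/6 mouse with no engineered allele named in the labels. All mice were born germ-free and weaned at about day 21. The germ-free (GF) mice then stayed in sterile isolators, whereas their conventionalized (CV) littermates spent 3 weeks in cages with soiled bedding from the animal facility, and every mouse was killed at 6 weeks of age. By their labels, there were 3 males and 3 females in each condition, named below by label and replicate number. Values are the deposited normalised read counts, that is, reads divided by a scaling factor for each library.

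These factors act as a mutually connected network on the enhancers and promoters of liver genes. HNF4A is an orphan nuclear receptor that drives much of the hepatocyte program, the FOXA proteins are pioneer factors that open chromatin, and C/EBPα promotes terminal differentiation and metabolic gene expression. ONECUT1 (HNF6) and PROX1 act in liver and bile duct development and continue to be expressed in adult hepatocytes, while NR5A2 (LRH-1) is a nuclear receptor with targets in bile acid and cholesterol metabolism.

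The libraries differed in more than their group. They held from 5993619 to 15290835 reads. In GF libraries, from 41.8% to 69.4% of reads came from 7 abundant loci (both mitochondrial ribosomal RNA genes, Lars2, Mir6236 and 3 predicted genes), as against 5.39% to 21.9% in CV libraries. The library labelled CV male 3 had no read of 4 Y-linked genes and an Xist value of 2382, which goes against its label, so the comparisons of the factors in males are also given without it. Hepatocyte markers were present in every library, and albumin ranged from 47020 to 278958. In these bulk samples, fewer cells of a type and less RNA per cell cannot be told apart.

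The level of the factors was first compared within each group, after division by the length of their exons. Hnf4a had the highest mean level in all 4 groups, from 240.0 ± 21.0 (SD, n = 3) normalised reads per kilobase in GF females to 383 ± 14.6 (SD, n = 3) in CV females. Averaged over the 12 libraries, Hnf4a lay at percentile 93 of the 11731 tested genes with an annotated length, Cebpa at 90.2, Foxa3 at 87.7 and Prox1 at 83.5. The other factors lay nearer to the middle, with Foxa2 at 72.9, Foxa1 at 63.6, Nr5a2 at 56.8 and Onecut1 at 52.2.

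The order of the factors differed between the conditions. In CV males and in CV females, it ran from Hnf4a through Cebpa, Foxa3, Prox1, Foxa2, Foxa1 and Nr5a2 to Onecut1. Among CV females, only Cebpa and Foxa3 overlapped as neighbours in this order, and among CV males the overlapping neighbours were Hnf4a with Cebpa and Nr5a2 with Onecut1. In GF females, Prox1 stood in second place, followed by Foxa3 and Cebpa, with overlapping ranges. In GF males, the order was Hnf4a, Cebpa, Foxa3, Prox1, Onecut1, Foxa1, Foxa2 and Nr5a2, and Hnf4a was the only factor that did not overlap with its neighbour. The order in CV males and the neighbours that overlapped were the same without the library labelled CV male 3. These levels per kilobase are means of 3 libraries, and their order was not tested.

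**Figure D1:**
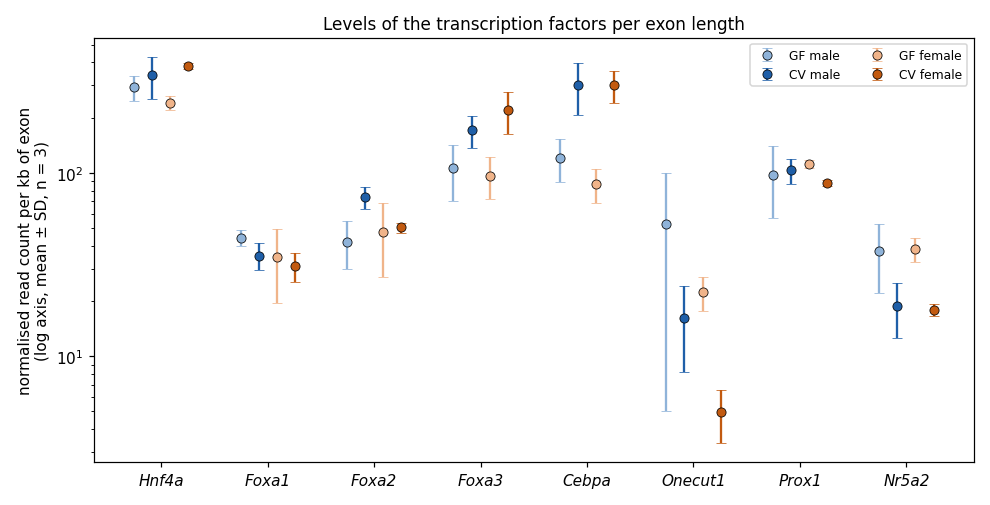
Normalised read count per kilobase of exon on a log axis for each of the 8 transcription factors, with the mean and SD of 3 libraries in GF males, CV males, GF females and CV females. Hnf4a is highest in each group, and Cebpa and Foxa3 stand higher in CV than in GF groups while Onecut1 and Nr5a2 stand lower.

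The sequence before the start site is shown for the factors with the clearest changes, Cebpa and Foxa3, which were higher in CV livers, and Onecut1 and Nr5a2, which were lower. Each is the 250 bases 5′ of the first listed start in RefSeq (GRCm38.p6), and none of these 4 windows overlaps an annotated exon. They lie at chr7:35119043-35119292 on the plus strand for Cebpa, chr7:19023540-19023789 on the minus strand for Foxa3, chr9:74861671-74861920 on the plus strand for Onecut1 and chr1:136960449-136960698 on the minus strand for Nr5a2. Capitals mark matches on either strand to the letters of the TATA box, which were searched as TATAAA. They also mark the GC box, which was searched as GGGCGG, and the CCAAT box, which was searched under its own letters.
Cebpa: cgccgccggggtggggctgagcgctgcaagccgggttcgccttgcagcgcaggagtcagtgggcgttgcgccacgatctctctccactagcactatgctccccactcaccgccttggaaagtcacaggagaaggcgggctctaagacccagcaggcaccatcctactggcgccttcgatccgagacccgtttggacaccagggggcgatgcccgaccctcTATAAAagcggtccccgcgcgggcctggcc
Foxa3: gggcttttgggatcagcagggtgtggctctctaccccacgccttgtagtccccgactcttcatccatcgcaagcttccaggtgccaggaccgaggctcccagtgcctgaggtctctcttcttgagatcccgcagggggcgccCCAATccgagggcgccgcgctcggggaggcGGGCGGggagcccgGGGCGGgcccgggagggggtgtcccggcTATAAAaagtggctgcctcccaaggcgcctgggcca
Onecut1: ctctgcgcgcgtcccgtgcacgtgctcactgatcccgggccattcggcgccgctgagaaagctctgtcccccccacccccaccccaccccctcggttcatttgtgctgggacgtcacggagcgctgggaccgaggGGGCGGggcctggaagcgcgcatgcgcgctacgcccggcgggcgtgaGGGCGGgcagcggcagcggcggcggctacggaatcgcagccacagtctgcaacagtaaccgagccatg
Nr5a2: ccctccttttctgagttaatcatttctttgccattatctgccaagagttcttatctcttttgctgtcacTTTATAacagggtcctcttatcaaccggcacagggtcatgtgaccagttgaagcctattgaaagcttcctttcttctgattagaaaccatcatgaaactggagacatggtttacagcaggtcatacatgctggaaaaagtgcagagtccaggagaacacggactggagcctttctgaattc

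The Cebpa window holds a TATA box from 30 to 25 bases upstream of the start, and the Foxa3 window from 36 to 31 bases upstream. Among the other factors, these letters were also found in reverse in the first Prox1 window, from 34 to 29 bases upstream, and in the third Foxa2 window, from 208 to 203 bases upstream, and in neither Hnf4a window. The Onecut1 window has no TATA box and holds a GC box at 2 positions, and its GC content of 71.6% was above the median of 52.4% over all 32851 promoter windows. The Nr5a2 window, with a GC content of 43.2%, holds a TATA box only in reverse, from 181 to 176 bases upstream. Among all promoter windows, 12.4% hold a TATA box by these letters, 32.7% a GC box and 33.9% a CCAAT box. The letters AATCAATA, which ONECUT factors can bind, were found in 0.718% of all windows and in 2 of the 13 windows of the 8 factors, those of the first starts of Hnf4a and Foxa2. Letters that other liver factors can bind were searched in the same way. Those for HNF4A, HNF1 and NR5A2 were found in 0 of the 13 windows. The patterns for FOXA were found in 1, 1 and 0 of them, beside 3.17%, 4.30% and 2.73% of all windows. The pattern for C/EBP was found in 1, beside 9.56%. Whether any pattern is enriched in the 13 windows was not tested. Such matches describe the sequence and not a bound site.

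To ask how the factors differed between the conditions, CV and GF libraries were compared within each sex and over both, using limma on log2 values across all 11782 genes with Benjamini-Hochberg adjustment. Over both sexes, 6 of the 8 factors passed an adjusted p of 0.05, with Cebpa, Foxa3, Foxa2 and Hnf4a higher in CV livers and Onecut1 and Nr5a2 lower. Of all tested genes, 61.1% passed this test, 32.3% as higher and 28.7% as lower in CV livers, so the count alone does not set these factors apart. The median log2 change of the 8 factors was 0.17, beside 0.07 for all tested genes. Without the library labelled CV male 3, 5 factors passed, beside 60.3% of tested genes, and Foxa2 was the factor lost.

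**Figure D2:**
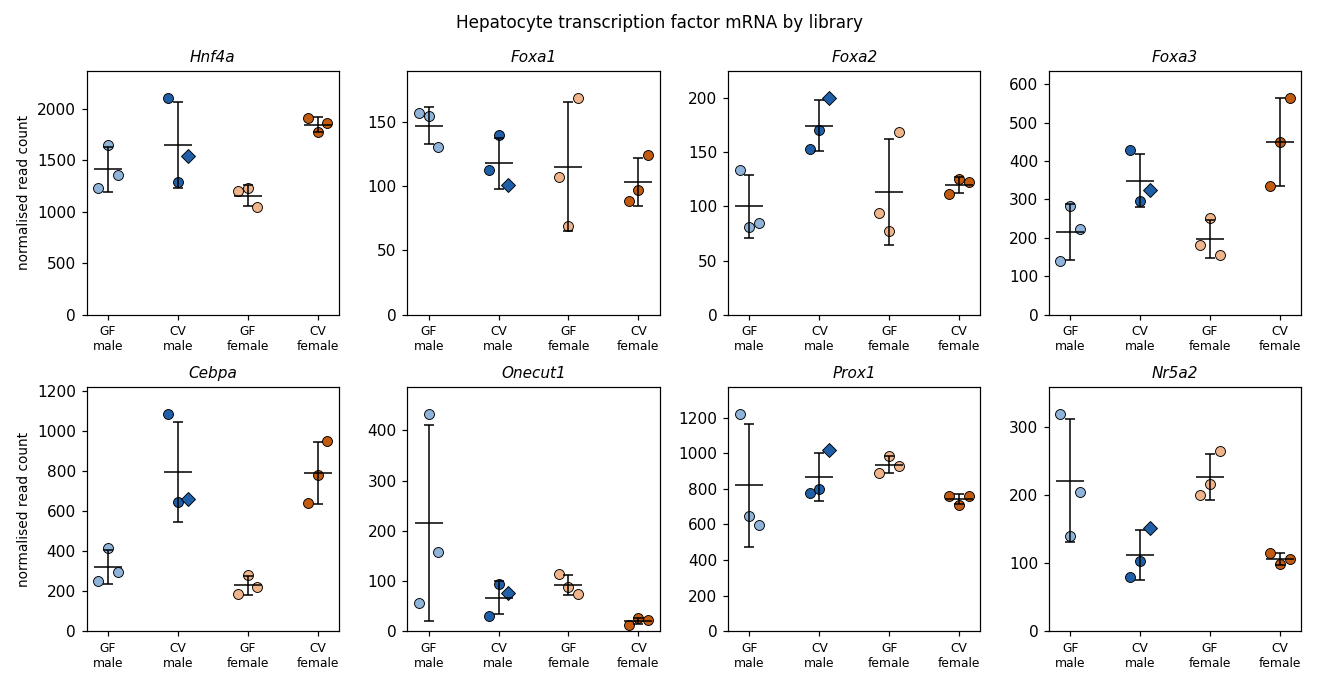
Normalised read count of each transcription factor in each of the 12 libraries, with the mean and SD of 3 libraries as a bar and whiskers and the library labelled CV male 3 as a diamond. Cebpa is higher in every CV library than in every GF library, and Nr5a2 is higher in every GF female than in every CV female.

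Cebpa (ENSMUSG00000034957, chromosome 7, bases 35119293 to 35121928 of GRCm38, plus strand), the single-exon gene of C/EBPα, showed the largest rise among the factors. Its values were 249.8, 415 and 293 in GF males and 1085, 644 and 660 in CV males. In GF females they were 186, 279 and 220.4, and in CV females 639.7, 779 and 952. Every CV library lay above every GF library in both sexes. The level in CV livers was 2.92-fold that in GF livers over both sexes, or 1.55 ± 0.20 (SE) on the log2 scale (limma adjusted p = 8.07e-06). The change was 1.30 ± 0.28 in males (limma adjusted p = 0.00387) and 1.79 ± 0.28 in females (limma adjusted p = 7.87e-05). Without the library labelled CV male 3, the change in males was 1.42 (limma adjusted p = 0.00594).

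Hnf4a (ENSMUSG00000017950, chromosome 2, bases 163506808 to 163572910, plus strand) differed in females. Its values were 1202, 1232 and 1043 in GF females and 1908, 1771 and 1866 in CV females, with no overlap. In GF males they were 1233, 1650 and 1353, and in CV males 2107, 1288 and 1544, so that the male groups overlapped. The log2 change was 0.68 ± 0.24 in females (limma adjusted p = 0.0262) and 0.20 ± 0.24 in males (limma adjusted p = 0.556), where the 95% interval ran from −0.31 to 0.72. Over both sexes it was 0.44 ± 0.17 (limma adjusted p = 0.0358). This call was narrow. It was lost in edgeR (adjusted p = 0.074) and passed in DESeq2 on the same reads at 0.45 (adjusted p = 0.00829), and the limma adjusted p lay between 0.0544 and 0.078 when GF male 1 or 3, GF female 1 or 3, CV male 1 or any CV female library was left out. In females, the call was lost in edgeR (adjusted p = 0.0563) and passed in DESeq2 (adjusted p = 0.00566), and the limma adjusted p lay between 0.0531 and 0.0773 without GF female 1 or 3 or any CV female library. The change of Hnf4a in males was 0.23 without the library labelled CV male 3 (limma adjusted p = 0.571).

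The FOXA factors were not all called alike, and the difference between them was not tested. Foxa3 (ENSMUSG00000040891, chromosome 7, bases 19013284 to 19023538, minus strand) had values of 139, 283 and 224 in GF males and 428, 296 and 323 in CV males. In females the values were 183, 253 and 155 in GF livers and 334, 449 and 564 in CV livers. No CV library reached a GF library of its sex, although the highest GF male and the lowest CV male lay close together. The log2 change was 0.96 ± 0.21 over both sexes (limma adjusted p = 9.01e-04) and 1.18 ± 0.30 in females (limma adjusted p = 0.00306). In males it was 0.74 ± 0.30 and missed the threshold (limma adjusted p = 0.0715), which it passed at 0.96 without GF male 2 (limma adjusted p = 0.0299). The male change of Foxa3 was 0.45 without GF male 1 (limma adjusted p = 0.314) and 0.78 without the library labelled CV male 3 (limma adjusted p = 0.0991).

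Foxa2 (ENSMUSG00000037025, chromosome 2, bases 148042877 to 148046969, minus strand) had values of 133, 81.2 and 85.0 in GF males and 153, 170.1 and 199.9 in CV males. In GF females they were 93.6, 77.1 and 169, a range that spans the values of 111, 125 and 122 in CV females. The male groups did not overlap and the female groups did. The log2 change was 0.83 ± 0.29 in males (limma adjusted p = 0.0427) and 0.16 ± 0.29 in females (limma adjusted p = 0.665). The difference between these changes was 0.67 ± 0.41 and did not pass the test (limma adjusted p = 0.486). Over both sexes the change was 0.49 ± 0.21 (limma adjusted p = 0.0484), and edgeR gave an adjusted p of 0.106.

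The Foxa2 calls rested on few libraries. Without the library labelled CV male 3, the change was 0.72 in males (limma adjusted p = 0.118) and 0.44 over both sexes (limma adjusted p = 0.0983). In males the call was also lost without GF male 2 or 3, GF female 1, CV male 1 or 2 or any CV female library, with limma adjusted p values for Foxa2 from 0.0509 to 0.136. Over both sexes it was also lost without GF male 2 or 3, GF female 1 or 2, CV male 2 or any CV female library, with values from 0.0653 to 0.113.

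Foxa1 (ENSMUSG00000035451, chromosome 12, bases 57540628 to 57546916, minus strand) did not pass the test in either sex. Its values ranged from 130.4 to 157 in GF males and from 101 to 139.9 in CV males, and from 69.2 to 169 in GF females and from 88.7 to 124 in CV females. The groups overlapped in both sexes. The log2 change over both sexes was −0.20 ± 0.21 (limma adjusted p = 0.409), with a 95% interval from −0.64 to 0.24. Changes of Foxa1 within this interval cannot be told from none here. In males, the change of Foxa1 was −0.33 ± 0.29 (limma adjusted p = 0.416), and −0.22 without the library labelled CV male 3 (limma adjusted p = 0.646).

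Onecut1 (ENSMUSG00000043013, chromosome 9, bases 74861921 to 74891781, plus strand) showed the largest fall. In females its values were 113, 87.8 and 74.8 in GF livers and 13.0, 25.5 and 22.3 in CV livers, with no overlap. In males they were 56.4, 433 and 157 in GF livers and 30.2, 93.8 and 76.3 in CV livers. GF male 2 stood far above all other libraries, whereas GF male 1 lay within the range of the CV males. The log2 change was −2.16 ± 0.55 in females (limma adjusted p = 0.00361), a 4.46-fold lower level in CV livers, and −1.76 ± 0.39 over both sexes (limma adjusted p = 0.00102). In males it was −1.37 ± 0.55 (limma adjusted p = 0.0722). The male difference did pass in edgeR at −1.74 (adjusted p = 0.0183), in DESeq2 at −1.69 (adjusted p = 0.014), and in limma without GF male 1 at −2.10 (adjusted p = 0.0156) or with the replicate number as a block (adjusted p = 0.032). The male value was −0.64 without GF male 2 (limma adjusted p = 0.329) and −0.88 without CV male 1 (limma adjusted p = 0.293), and −1.54 without the library labelled CV male 3 (limma adjusted p = 0.0754).

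The Onecut1 values rest on few reads, from 31 to 38 in the CV females and from 33 to 325 in the other libraries. The lincRNA Gm20649 shares up to 2171 exonic bases with Onecut1 on the same strand and was listed with 0 reads. How reads in the shared part were counted is not given in the sources used here, so the level of Onecut1 is uncertain. Among the other factors, an exon of Prox1 overlaps the antisense gene Prox1os by 133 bases, and Prox1os had a mean value of 70.1. Cebpa shares 51 exonic bases with the antisense gene Gm45091, and the strand setting of the counting is not given in the sources used here.

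Prox1 (ENSMUSG00000010175, chromosome 1, bases 190118035 to 190170714, minus strand) did not pass the test in either sex. In females its values were 891, 987 and 929.7 in GF livers and 758, 709 and 761 in CV livers, so that every CV female lay below every GF female. In males they ranged from 597 to 1221 in GF livers and from 775 to 1022 in CV livers and overlapped. The log2 change was −0.33 ± 0.26 in females (limma adjusted p = 0.296) and 0.14 ± 0.26 in males (limma adjusted p = 0.705). The male change was 0.02 (limma adjusted p = 0.967) without the library labelled CV male 3, which had the highest Prox1 value among the CV libraries. Over both sexes the 95% interval ran from −0.49 to 0.30.

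Nr5a2 (ENSMUSG00000026398, chromosome 1, bases 136842571 to 136960448, minus strand) was lower in CV livers of both sexes. In females its values were 199, 215 and 265 in GF livers and 114, 98.1 and 105 in CV livers, with no overlap. In males they were 319, 139.7 and 204 in GF livers and 79.1, 103 and 152 in CV livers, where only the library labelled CV male 3 reached into the GF range. The level in GF livers was 2.02-fold that in CV livers over both sexes, or −1.02 ± 0.21 as a log2 change (limma adjusted p = 6.38e-04). The change was −1.08 ± 0.30 in females (limma adjusted p = 0.00617) and −0.95 ± 0.30 in males (limma adjusted p = 0.0272). In males it was −1.20 without the library labelled CV male 3 (limma adjusted p = 0.0142), and the call was lost without GF male 1 or 3 or CV male 1 or 2, at limma adjusted p values from 0.0596 to 0.150.

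**Figure D3:**
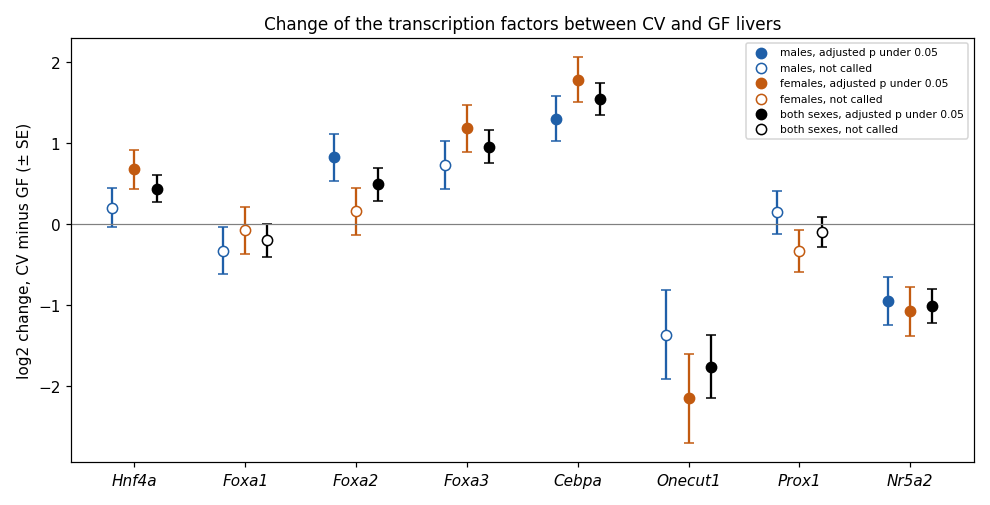
Log2 change of each transcription factor between CV and GF livers, with its SE, in males, in females and over both sexes, where filled points passed an adjusted p of 0.05 in limma. Cebpa and Nr5a2 are filled in both sexes and on opposite sides of 0, at 1.55 and −1.02 over both sexes.

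Within males, 3 of the 8 factors passed the test, with Cebpa and Foxa2 higher and Nr5a2 lower, beside 29.5% of all tested genes (14.1% higher and 15.4% lower). That share of all genes was 13.6% with GF male 1 left out, 18.1% with GF male 3 left out and 18.5% with CV male 1 left out, where 3, 1 and 1 of the factors passed. Within females, 5 passed, with Cebpa, Foxa3 and Hnf4a higher and Onecut1 and Nr5a2 lower, beside 55.8% (29.8% higher and 26% lower). Without the library labelled CV male 3, 2 factors passed in males, Cebpa and Nr5a2, beside 25.3% of tested genes. The libraries of the conditions did not overlap for 3 of the 8 factors in males, beside 43% of tested genes, and for 6 in females, beside 64.9%. Leaving out the library labelled CV male 3, this held for 4 factors in males, beside 50.7% of tested genes. Foxa3 and Cebpa did not overlap in either sex in the same direction, which was also so for 36.4% of tested genes.

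The effect of conventionalization on the factors was then compared between the sexes. None of the 8 factors passed the test of the difference in limma, and none had an unadjusted p under 0.05, beside 0% of all tested genes by adjusted p and 11.7% by unadjusted p. edgeR also called 0 of the factors, beside 0% of all genes by adjusted p and 11.3% by unadjusted p. When the library labelled CV male 3 was left out, limma called 0 factors and 0.0339% of all genes, and when CV male 1 was left out, 0 factors and 2.38%. The smallest limma adjusted p was the 0.486 of Foxa2. The intervals were wide, and that of Onecut1 ran from −0.87 to 2.44 on the log2 scale.

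Males and females were also compared within each condition, and 0 of the 8 factors passed in limma or in edgeR. In GF livers, 1.63% of tested genes passed in limma and 1.12% in edgeR, and in CV livers 0.0594% and 0.239%. These shares moved with single libraries. In GF livers, the limma share ranged from 0.415% without GF male 2 to 6.14% without GF female 2 and was 2.29% without the library labelled CV male 3. In CV livers, it was 0.653% without the library labelled CV male 3, 0.371% without CV male 1 and as low as 0.0253% without CV female 1 or 3. In each of these cases, 0 of the 8 factors passed. By unadjusted limma p under 0.05, 0 factors passed in GF livers and 1, Onecut1, in CV livers, beside 17.6% and 5.1% of tested genes. Its log2 level was higher in CV males than in CV females by 1.57 ± 0.55, which did not pass after adjustment (limma adjusted p = 0.802). Without the library labelled CV male 3, the difference was 1.40 (limma adjusted p = 1). By unadjusted edgeR p under 0.05, Onecut1 alone passed, in both conditions, beside 16.2% of all genes in GF livers and 6.05% in CV livers.

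Because the reads of a library enter every value through its scaling factor, the ratio of reads between pairs of factors was examined, which no scaling of the library can alter. Of the 28 pairs, the libraries of the conditions did not overlap for 14 in males and 21 in females, and for 11 in both sexes in the same direction. Among all pairs of tested genes, these shares were 40.7%, 62.4% and 33.4%. In males, 16 pairs did not overlap without the library labelled CV male 3, beside 48.9% of all pairs. These counts do not set the 28 pairs apart from other pairs, and the ratios have no test here and are described only.

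The ratios of Cebpa to some of its partners are given here. The log2 ratio of Foxa2 to Cebpa overlapped in males, from −2.35 to −0.90 in GF and from −2.83 to −1.72 in CV livers. The log2 ratio of Cebpa to Onecut1 ranged from −0.06 to 2.15 in GF males and from 2.78 to 5.17 in CV males, and from 0.71 to 1.67 in GF females and from 4.93 to 5.62 in CV females. Its range in CV males was the same without the library labelled CV male 3. The ratio of Cebpa to Nr5a2 was higher in CV livers by 2.27 on the log2 scale in males and by 2.88 in females. Hnf4a, which is more abundant, lost ground to Cebpa, with a change of their log2 ratio of −1.11 in either sex and no overlap. The male changes were 2.63 for Cebpa to Nr5a2 and −1.19 for Hnf4a to Cebpa without the library labelled CV male 3. Thus, the ratios of Cebpa with Onecut1, Nr5a2 and Hnf4a did not overlap between the conditions in either sex. This was also so, in the same direction in both sexes, for 33.4% of all pairs of tested genes.

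Other ratios separated some related factors, although Foxa2 to Foxa3 overlapped in both sexes and Foxa1 to Foxa2 overlapped in females. The log2 ratio of Foxa1 to Foxa3, 2 proteins of the same family, stood at −0.49 ± 0.58 (SD, n = 3) for GF males, against −1.56 ± 0.44 (SD, n = 3) for CV males. In females it was −0.84 ± 1.00 (SD, n = 3) in GF livers and −2.10 ± 0.17 (SD, n = 3) in CV livers, where the highest CV value lay just below the lowest GF value. The ratio of Prox1 to Nr5a2 was higher in CV livers by 1.10 in males and 0.76 in females, without overlap. In contrast, the ratio of Hnf4a to Prox1 rose by 1.01 in females, without overlap, and by 0.06 in males, where the groups overlapped. Leaving out the library labelled CV male 3 gave male changes of −1.01 for Foxa1 to Foxa3, 1.23 for Prox1 to Nr5a2 and 0.21 for Hnf4a to Prox1.

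**Figure D4:**
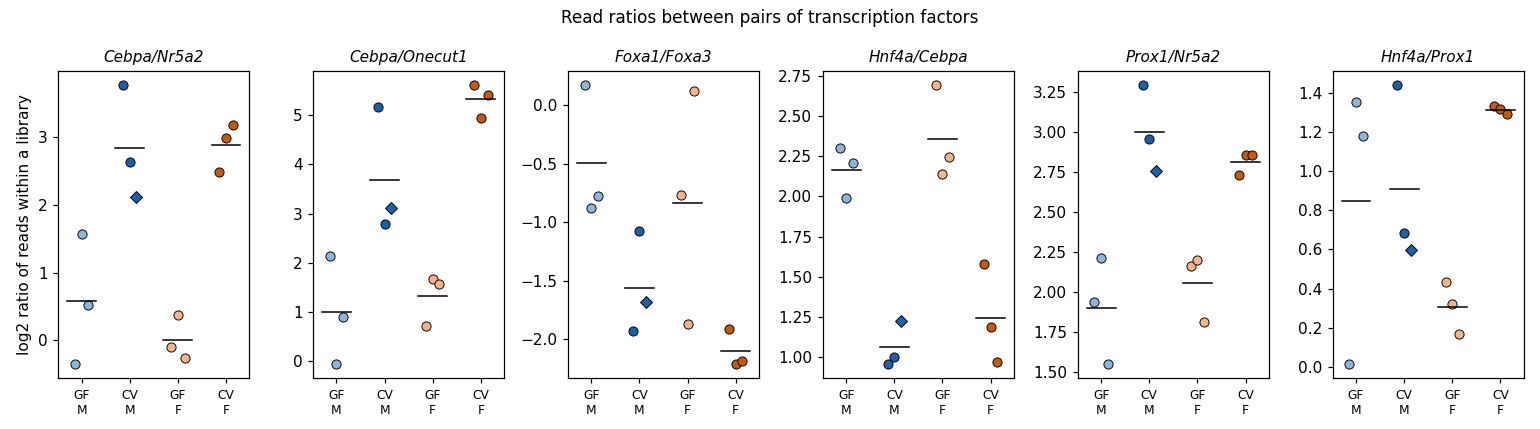
Log2 ratio of reads between pairs of transcription factors within each library, with the group mean as a line and the library labelled CV male 3 as a diamond. The ratio of Cebpa to Nr5a2 is higher in every CV library of a sex than in every GF library of that sex, while that of Hnf4a to Prox1 separates only the females.

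How far each change depended on the scaling of the libraries was then examined. Over both sexes, the median log2 change of all tested genes was 0.07 with the deposited factors, 0.62 when values were scaled to all reads of a library and −0.38 when they were scaled to reads outside the abundant loci. Scaled to all reads, 6 of the 8 factors passed, 5 as higher and 1 as lower in CV livers, beside 64% of tested genes (50.3% higher and 13.7% lower). Scaled to reads outside the abundant loci, 6 passed, 2 as higher and 4 as lower, beside 59.5% (18.2% higher and 41.3% lower). Cebpa and Foxa3 passed as higher in CV livers under each of these scalings, at 2.11 and 1.52 with all reads and at 1.09 and 0.50 with reads outside the abundant loci. Onecut1 passed as lower under each, at −1.22 and −2.21. Nr5a2 was lower at −0.46 with all reads, which missed the threshold (limma adjusted p = 0.102), and at −1.47 with reads outside the abundant loci (limma adjusted p = 2.30e-04).

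The other factors turned or lost their change with the scaling. Hnf4a was at 1.00 with all reads (limma adjusted p = 1.53e-04) and at −0.02 with reads outside the abundant loci (limma adjusted p = 0.901), and Foxa2 was at 1.05 and 0.03. Prox1 passed in opposite directions, at 0.47 with all reads (limma adjusted p = 0.0488) and −0.55 with reads outside the abundant loci (limma adjusted p = 0.0308). Foxa1 was at 0.35 with all reads and passed at −0.66 with reads outside the abundant loci (limma adjusted p = 0.0388). Each scaling thus shifted the factors in the same direction as the median of all genes.

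The longest annotated transcripts of the factors range from 2037 bases for Foxa3 to 7913 bases for Prox1 and in GC content from 43.3% for Nr5a2 to 62.6% for Cebpa. After a trend of each library on transcript length and GC content was removed, Cebpa was at 1.48, Onecut1 at −1.74 and Nr5a2 at −0.75 (limma adjusted p = 0.00452). Foxa3 was at 0.46 (limma adjusted p = 0.0496), Foxa2 at 0.05 (limma adjusted p = 0.848) and Prox1 at 0.48 (limma adjusted p = 0.0174). With the share of mitochondrial ribosomal RNA or of the abundant loci as a covariate, 0 of the 8 factors passed in limma, beside 0% and 0.0594% of all tested genes, so these fits left almost no call in the whole table. Of the variance of these shares, 93.5% and 95.3% lay between the groups, so the composition of the libraries and the condition cannot be told apart in this way.

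**Figure D5:**
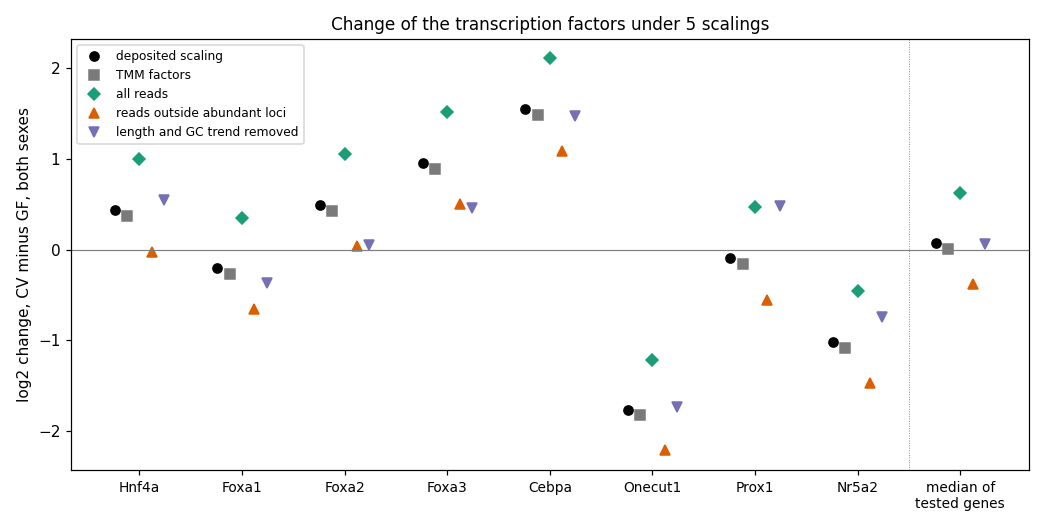
Log2 change between CV and GF livers over both sexes for each transcription factor and for the median of the 11782 tested genes, with the deposited scaling and 4 other treatments of the values. Cebpa stays between 1.09 and 2.11 and Onecut1 between −2.21 and −1.22, while Hnf4a runs from −0.02 to 1.00.

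The change of the 8 factors was set beside that of 28 other liver-enriched transcription factors, of which 27 were tested. Of these, 6 were higher and 5 lower in CV livers over both sexes, with a median log2 change of 0.16, beside the 32.3% higher and 28.7% lower of all tested genes. Nr2f6, an orphan receptor of the COUP family, was higher by 1.51 ± 0.20 (limma adjusted p = 9.91e-06) and Xbp1, a factor of the unfolded protein response, by 1.12 ± 0.20 (limma adjusted p = 1.63e-04). Tcf7l2, a Wnt pathway effector, was lower at −1.79 ± 0.23 (limma adjusted p = 7.59e-06) and Onecut2, the paralog of Onecut1, at −1.21 ± 0.25 (limma adjusted p = 6.32e-04). With values scaled to all reads the counts were 17 higher and 2 lower, beside 50.3% and 13.7% of all tested genes, and with reads outside the abundant loci 2 higher and 7 lower, beside 18.2% and 41.3%.

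Coregulators that work with the factors were mostly lower in CV livers. Of 12 tested, 0 were higher and 10 lower, beside 32.3% and 28.7% of all tested genes, with a median log2 change of −0.95. Ppargc1a, the coactivator PGC-1α that HNF4A uses in the fasted liver, was at −2.36 ± 0.20 (limma adjusted p = 4.86e-07). With values scaled to all reads, 2 were higher and 4 lower, beside 50.3% and 13.7%.

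Over both sexes, genes that the factors are known to activate were mostly higher or not called. Of 19 secreted hepatocyte proteins, 15 were higher and 0 lower, beside 32.3% and 28.7% of all tested genes, the median being 1.10, among them Fgg (fibrinogen) at 2.31 ± 0.28 and Rbp4 (retinol transport) at 1.96 ± 0.27 (limma adjusted p = 5.49e-06 and 1.67e-05). Of 14 hepatocyte enzymes, 9 were higher and 0 lower, the median being 0.67, among them Fbp1 (gluconeogenesis) at 2.46 ± 0.25 (limma adjusted p = 1.47e-06). In males, 3 of the enzymes were higher and 1 lower, beside 14.1% and 15.4% of all tested genes. In females, 8 were higher and 0 lower, beside 29.8% and 26%. With reads outside the abundant loci as the scaling, over both sexes, 11 of the secreted proteins were higher and 0 lower. Of the enzymes, 4 were then higher and 2 lower, beside 18.2% and 41.3% of all tested genes. Of 8 known NR5A2 targets, 2 were higher and 1 lower, beside 32.3% and 28.7% of all tested genes. Without GF female 1, 5 of these targets passed, beside 6756 of 11738 tested genes. These counts do not set the NR5A2 targets apart from other genes. Cyp8b1, a bile acid 12-alpha-hydroxylase, was at 2.37 ± 0.40, Slc10a1, the bile acid importer NTCP, at 1.86 ± 0.22 and Abcg5, a sterol exporter, at −0.93 ± 0.20 (limma adjusted p = 1.05e-04, 4.60e-06 and 7.85e-04).

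Markers of liver cell types moved with the condition as well. Of 10 hepatocyte markers, 6 were higher in CV livers and 0 lower, beside 32.3% and 28.7% of all tested genes, and their summed value lay between 108875 and 447589 in GF livers and between 372393 and 587877 in CV livers. The asialoglycoprotein receptor genes Asgr2 and Asgr1 were higher by 1.51 ± 0.19 and 1.60 ± 0.21 (limma adjusted p = 9.14e-06 and 1.34e-05). With reads outside the abundant loci as the scaling, 3 of the markers were higher and 1 lower, beside 18.2% and 41.3%. Their part in the changes of the factors was not tested.

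Other cell types were checked because PROX1 also marks lymphatic endothelium and the FOXA and ONECUT factors are found in bile ducts. Of 7 tested endothelial markers, 0 were higher and 3 lower, beside 32.3% and 28.7% of all tested genes, with Stab2 at −1.87 ± 0.28 and Cdh5 at −0.59 ± 0.24 (limma adjusted p = 4.05e-05 and 0.0407). Only 1 of them passed without GF male 2, GF female 2, CV female 1 or CV female 2, and with values scaled to all reads 1 was higher and 1 lower, beside 50.3% and 13.7% of all tested genes. Their summed value lay between 1220 and 2827 in GF livers and between 576 and 1595 in CV livers, and the lymphatic marker Pdpn was at or near 0 throughout. Of 7 tested bile duct markers, only Muc1 was higher, at 1.58 ± 0.58 (limma adjusted p = 0.0274), a call lost without GF male 1 or 3, GF female 1 or 2, CV female 1 or 3 or the library labelled CV male 3. Cftr was at or near 0 in CV libraries, and the summed value lay between 595 and 1130 in GF livers and between 609 and 1697 in CV livers. The part of these cells in the values of Prox1, Foxa1, Foxa2 and Onecut1 was not tested.

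Of 8 macrophage markers, 4 were higher in CV livers and 0 lower, beside 32.3% and 28.7% of all tested genes, among them C1qa at 1.80 ± 0.27 and Vsig4 at 1.18 ± 0.19 (limma adjusted p = 3.40e-05 and 6.51e-05). Their summed value lay between 869 and 1654 in GF livers and between 963 and 2223 in CV livers. Of the exocrine pancreas, where Nr5a2 is also active, only Cela1 passed the filter, at 1.30 ± 0.25 (limma adjusted p = 2.79e-04), and the other 7 markers were at or near 0. Of the 6 fetal liver markers, 0 passed the filter on low values and Dlk1 had no read in any library.

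Finally, the genes whose profile over the 12 libraries lay nearest to that of each factor were listed, by the root mean square difference of centred log2 values. For Hnf4a these were Sar1a at 0.0826 and Wdr46 at 0.105, the smallest distances among the 8 factors, and for Cebpa Smim7 at 0.140 and Nit2 at 0.154. Foxa3 was nearest to Gnb2 at 0.137 and Prelid3b at 0.153, Prox1 to Sertad2 at 0.156 and Iqgap2 at 0.156, and Nr5a2 to Arhgap29 at 0.154 and Zcchc14 at 0.161. Foxa1 was nearest to Inca1 at 0.197 and Cpsf4 at 0.206, and Foxa2 to Hic1 at 0.250 and Klf13 at 0.257. For Onecut1, the closest genes, Snora43 and Arl5c, lay at 0.549 and 0.617. This distance also depends on how much the profile of a gene varies, so it does not rank the factors by likeness. None of the factors had another of the 8 factors among its 2 nearest genes. With 2 places among 11782 tested genes, this says little about whether the factors vary together. The nearest other factor ranked between 351 (Prox1, seen from Foxa2) and 2818 (Nr5a2, seen from Onecut1).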

How the data were processed

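RNA sequencing of liver was analysed in 12 libraries from 12 mice, grouped by condition and labelled sex from the sample titles. Per the labels, RNA was isolated with a column kit and libraries were made with a stranded mRNA kit, and the submitters' processing notes name GRCm38, HTSeq 0.6.1p1 and DESeq2. The aligner, the annotation and the strand setting are not given in the sources used here. The paper supplied with the series describes another experiment and gave no method.

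The deposited values are size-factor-normalized signal, that is, gene counts that the authors divided by a factor for each library. Whole reads were recovered from them by the value of 1 read in each library, and 100% of the values were whole within 0.01 reads. Total recovered reads per library ranged from 5993619 to 15290835. The test for normalized values, limma 3.58.1 in R 4.3.3 on log2(value + 1), was applied to genes with a mean value of at least 10 (11782 genes), with 4 group means, a variance trend, Benjamini-Hochberg adjustment and a threshold of 0.05. Fold changes are on that scale, which understates changes of low genes. The count test, edgeR 4.0.16 on the recovered reads, called 7634 of 12555 genes over both sexes, as against 7194 in limma. The scripts were tested on simulated data.

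The members and all gene lists were chosen with earlier results of these data known. All 8 factors are named, with up to 2 genes of each other list per direction with the smallest adjusted p over both sexes, and the 2 genes with an established symbol nearest to each factor. Some genes this rule names are counted in their lists but not reported here. Other mentions of marker genes were chosen after their values were seen. Gene positions and exon lengths were taken from GENCODE release 21, in which 40254 of the 41128 identifiers were found. Promoter windows were taken from RefSeq, and all 8 factors matched by symbol.

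Alternatives were 29 settings: edgeR with other factors or filter and DESeq2 1.42.0 on recovered reads, pseudocounts of 0.5 and 10, minimum mean values of 1, 50 or none, 3 other scalings, 2 composition covariates, removal of a loess trend (transcript length, GC content) from each library, a threshold of 0.01, a replicate block and each library left out in turn. Abundant loci were those with a mean share over 0.5% of reads that are not annotated as protein coding, and Lars2. Same-numbered CV males and CV females had weak positive correlations across genes of 0.193, 0.118 and 0.173. The sample titles give only a number, so whether it pairs the mice is not known. The main fit did not use it. In the other pairs of groups, at least 1 same-numbered pair was at 0.1 or lower. GF male 2 and GF female 2 were at 0.403.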

Additional observations from a re-analysis of the deposited data

Results flagged for a closer look

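Over the 6 CV libraries, the Prox1 value of the library labelled CV male 3, 1022, stood apart from the other 5, which ranged from 709 to 802. Its gap to the nearest library was 0.663 of the whole range, above the critical value of 0.625 for 6 samples. Of 16 such measures (the 8 factors over the 6 GF and the 6 CV libraries), this was the only one past its limit. By chance, about 1 in 20 single measures pass it, so 1 among 16 is near what chance gives. The library labelled CV male 3 is also the one whose Xist value and Y-linked reads go against its label.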

How the results depend on the processing

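Over both sexes, 6 of the 8 factors passed in limma, 4 to 5 when a library was left out, and 0 with either composition covariate. Of all tested genes, 7194 passed, 6640 to 7429 when a library was left out, and 0 or 7 with the covariates. In males, 3 passed, 1 to 3 when a library was left out (1 without GF male 3, CV male 1 or CV male 2, where Cebpa remained), 0 with either covariate, and 1 with the length and GC trend removed or at a threshold of 0.01. Of all tested genes in males, 3474 passed, 1595 to 3877 when a library was left out, and 3 or 13 with the covariates. With the length and GC trend removed 2974 passed, and at the threshold of 0.01 there were 1390. In females, 5 passed, 4 to 5 when a library was left out and 0 with either covariate. Of all tested genes in females, 6572 passed, 5550 to 7002 when a library was left out, and 0 with either covariate. In edgeR with a minimum of 1 read in total, Onecut1 passed between the sexes in GF and in CV livers, giving 1 factor each in place of 0. That setting also called more of the whole table, 564 genes in GF and 161 in CV livers, as against 192 and 7 in the main fit.

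Several changes turned. Scaled to all reads, these were Foxa1 (0.35 over both sexes, 0.72 in females) and Prox1 (0.47 and 0.48). Scaled to reads outside the abundant loci, they were Hnf4a (−0.022 over both sexes, −0.10 in males), Prox1 in males (−0.16) and Foxa2 in females (−0.46). With the length and GC trend removed, they were Prox1 (0.48 over both sexes, 0.46 in females) and Foxa2 in females (−0.43). With the mitochondrial ribosomal RNA share as a covariate, they were Hnf4a (−0.31 over both sexes, −0.24 in males, −0.37 in females), Prox1 (0.84 over both sexes, 0.98 in females) and Nr5a2 (0.17 over both sexes, 0.59 in females). With the abundant loci share, they were Hnf4a (−0.77 over both sexes, −0.60 in males, −0.94 in females), Foxa1 (0.24 over both sexes, 0.51 in females), Foxa3 (−0.32 over both sexes, −0.12 in males, −0.53 in females), Prox1 (1.21 over both sexes, 1.41 in females), Nr5a2 (1.03 over both sexes, 0.41 in males, 1.65 in females) and the Foxa2 difference between the sexes (−0.28). Leaving out a library turned Foxa1 in females (range −0.39 to 0.24, above 0 without CV female 1 or GF female 3), Foxa2 in females (lowest −0.075, without GF female 2), Prox1 over both sexes (range −0.19 to 0.069, above 0 without GF male 1) and Prox1 in males (lowest −0.046, without GF male 3). The cause was not tested.

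The replicate block added Onecut1 in males (log2 change −1.37, limma adjusted p = 0.032), giving 4 factors in place of 3, and changed no other call among the 8 factors. Of all tested genes, 3466 passed in males with the block, as against 3474 in the main fit. The block applied the number across all 4 groups, and whether it pairs any of these mice is not known. Low read numbers limit Onecut1 most, with 31 to 38 reads in CV females.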
